A study of Mus musculus with 6 samples.

Results

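Aminoacyl-tRNA synthetases join each amino acid to its tRNA, the step that supplies every ribosome with charged tRNA. Mammalian cells hold separate sets of these nuclear-encoded enzymes, a cytosolic set for the cytosolic ribosome and a mitochondrial set for the mitoribosome, which makes subunits of the respiratory chain. Many cytosolic synthetase genes belong to the amino acid response, in which the transcription factor ATF4 raises genes of amino acid supply when amino acids are short or mitochondria are under stress, whereas the mitochondrial genes are not known as a group for that response. The transcripts of both sets were compared between liver tumors with and without Top1mt, the gene of the topoisomerase that relaxes mitochondrial DNA. Genes were taken by symbol alone, with symbols ending in 2 counted as mitochondrial and the others as cytosolic. The rule listed 37 symbols, of which Mars1 and Mars name the same gene, and it found 36 of the 30236 genes in the table. Of the 36 members, 20 were cytosolic and 16 mitochondrial, and all 36 passed the filter on low values, which kept 22677 genes. Gars and Kars are known to encode the cytosolic and the mitochondrial enzyme from 1 gene each, so their values cover both compartments.

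RNA was sequenced from liver tumors of male C57BL/6 littermates, 3 from wild-type mice (WT) and 3 from Top1mt -/- mice (Top1mt-KO). The knockout line lacks the gene in the whole animal, so every cell type of a tumor shared the genotype. Both groups had been given diethylnitrosamine, a mutagen, on postnatal day 14 and carbon tetrachloride, a liver toxin, for 14 weeks from week 8, and tumors were taken at 22 weeks of age. The labels do not say whether tumors of 1 genotype came from separate mice, so errors and tests describe the spread between these tumors only. The values are log2 expression values per gene, for which the read depth is unknown. A difference below is always the log2 value in Top1mt-KO minus that in WT, as fitted by limma, with the standard error (SE) of the fit. The values are not corrected for transcript length, so differences between genotypes were compared between genes and levels were not. In bulk tissue, fewer cells of a type and less RNA per cell cannot be told apart.

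The genotype labels were first checked on the targeted gene, and the tissue on cell type markers. Top1mt read 7.71, 5.99 and 8.01 in the WT libraries and 6.41, 6.32 and 5.58 in Top1mt-KO replicates 2, 3 and 1. The value of WT replicate 2 was the second lowest of the 6, under those of Top1mt-KO replicates 2 and 3, and the difference was -1.13 (SE 0.52, exact two-sided permutation p = 0.3, with 0.1 the smallest p that 3 against 3 libraries allow). The library labelled WT replicate 2 therefore goes against its label on this gene. Hepatocyte markers were high in all 6 libraries, with summed levels of 20.6 to 21.3 in WT and 20.9 to 21.4 in Top1mt-KO. The lowest value of any marker in the 8 lists was 1.14, for Cd3e, on a log2 scale that starts at -2.24. Across all genes, limma called 0 of 22677 at an adjusted p under 0.05, which is 0%, and the smallest adjusted p was 0.938. With no adjustment, 1.79% of genes were higher and 2.56% lower in Top1mt-KO at a p under 0.05. The 3 values of each genotype did not overlap for 3.95% of genes that were higher and 4.33% that were lower.

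Cytosolic synthetase transcripts were mostly a little higher in Top1mt-KO tumors, and mitochondrial ones lay on both sides of 0. Of the 20 cytosolic members, 19 had a difference above 0, against 47.7% of all genes tested. This count was 15 to 19 when each library was left out in turn, and 9 of the 20 members turned sign in at least 1 of these fits. Their median difference was 0.14, beside a median of -0.015 over all genes tested. In the more strongly expressed genes, above the median level, 50.4% of 15118 had a difference above 0 and the median was 0.0027. Of the 15 mitochondrial members other than Lars2, 10 were above 0 and 5 below, with a median of 0.072. Lars2, the mitochondrial leucine enzyme, is described apart because 1 Top1mt-KO library holds an extreme value for it. None of the 36 members passed the adjusted threshold in limma, where each had an adjusted p of 0.999. By unadjusted p under 0.05 in limma, 3 cytosolic members were higher (Tars, Cars and Iars), 0 were lower, and 0 mitochondrial members differed. By the same threshold 1.79% of all genes tested were higher and 2.56% lower. The genotypes did not overlap for 2 cytosolic members, both higher in Top1mt-KO (Cars and Iars), and for 0 mitochondrial members. The shares of all genes tested without overlap were 3.95% higher and 4.33% lower.

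**Figure D1:**
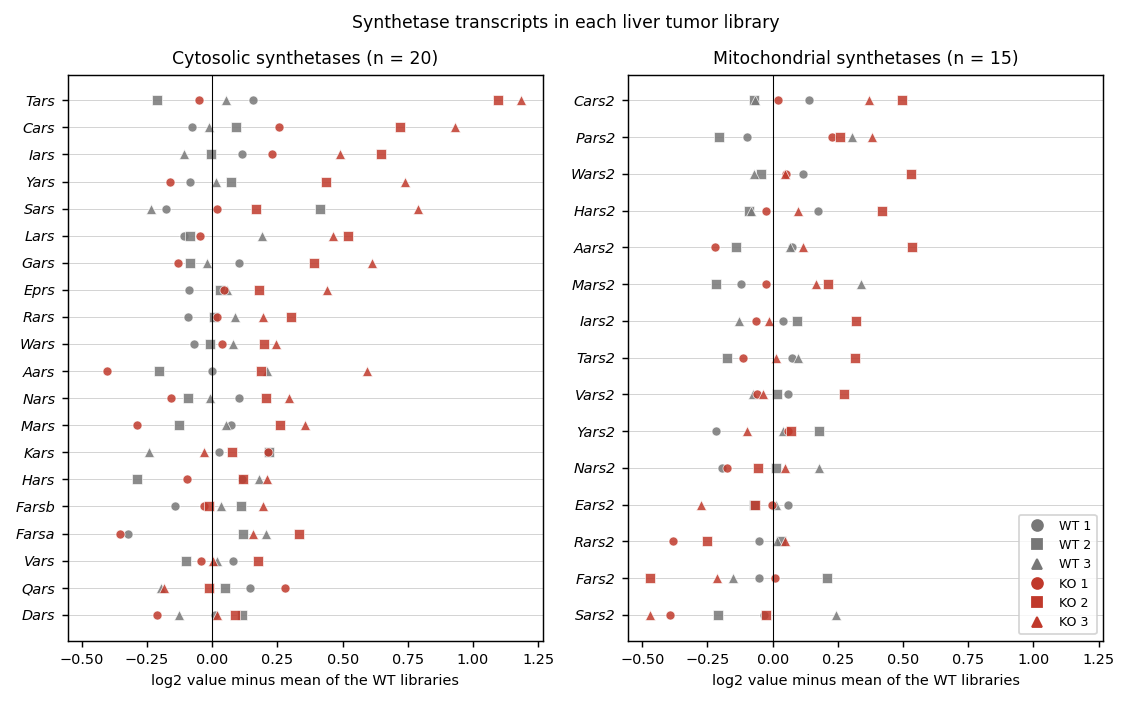
Each member in each library, as its log2 value minus the mean of the 3 WT libraries (x axis), with WT in grey, Top1mt-KO in red and 1 marker shape per replicate number; Lars2 is left out. Top1mt-KO replicates 2 and 3 lie to the right of every WT library for 11 of the 20 cytosolic members, while replicate 1 lies to the left of every WT library for 7 of them.

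Among the cytosolic members, the 3 largest differences belonged to the threonine, cysteine and isoleucine enzymes. Tars, which charges threonine tRNA, read 10.29, 9.92 and 10.19 in WT replicates 1 to 3 and 10.08, 11.23 and 11.32 in Top1mt-KO replicates 1 to 3. Top1mt-KO replicate 1 lay inside the WT range, and the other 2 stood above every WT library. The difference for Tars was 0.74 (SE 0.32, 95% interval 0.015 to 1.47). Cars, the cysteine enzyme, read 9.23, 9.40 and 9.30 in WT and 9.57, 10.03 and 10.24 in Top1mt-KO. Every Top1mt-KO library was above every WT library, and the difference was 0.64 (SE 0.19, 95% interval 0.21 to 1.06). Iars, the isoleucine enzyme, read 9.74, 9.62 and 9.52 in WT and 9.86, 10.28 and 10.12 in Top1mt-KO. These values did not overlap either, though Top1mt-KO replicate 1 was only a little above the highest WT library, and the difference was 0.46 (SE 0.15, 95% interval 0.11 to 0.80). Leaving out each library in turn, the differences ranged from 0.52 to 1.14 for Tars, from 0.49 to 0.83 for Cars and from 0.36 to 0.57 for Iars. The exons of Cars overlap those of Gm15580 on the opposite strand in GENCODE M21, and no strand setting is given for the counting, so reads of the pair may not be separated. Tars and Iars overlap no other gene's exons.

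A second tier of cytosolic members had differences between 0.22 and 0.34, with intervals that included 0. Yars, the tyrosine enzyme, read 8.90, 9.06 and 9.00 in WT and 8.83, 9.43 and 9.73 in Top1mt-KO (difference 0.34, SE 0.22). Gars, which charges glycine tRNA in both compartments, read 9.65, 9.47 and 9.53 in WT and 9.42, 9.94 and 10.16 in Top1mt-KO (difference 0.29, SE 0.20). Eprs, the fused enzyme for glutamate and proline and a scaffold part of the multi-synthetase complex, read 11.43, 11.55 and 11.58 in WT and 11.57, 11.70 and 11.96 in Top1mt-KO (difference 0.22, SE 0.15). In each of these genes Top1mt-KO replicates 2 and 3 were above all WT libraries and replicate 1 was not. The serine enzyme Sars and the cytosolic leucine enzyme Lars had differences of 0.32 and 0.31. Below these, the difference was 0.17 for Rars (arginine), 0.16 for Wars (tryptophan), 0.13 for Aars (alanine), 0.11 for Nars (asparagine) and 0.11 for Mars (methionine). The reads of Mars and Yars share exon sequence with the opposite-strand genes Ddit3 and C77080, and Ddit3 is itself a gene of the amino acid response.

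The remaining cytosolic members differed little between genotypes. Kars, which charges lysine tRNA in both compartments, read 9.83, 10.02 and 9.56 in WT and 10.02, 9.88 and 9.77 in Top1mt-KO (difference 0.086, SE 0.16). Qars, the glutamine enzyme, has no mitochondrial partner because mitochondria make their glutamine-charged tRNA by way of glutamate, and it read 9.85, 9.76 and 9.51 in WT and 9.98, 9.70 and 9.52 in Top1mt-KO (difference 0.027, SE 0.17). Both genes were spread as widely within a genotype as between them. The histidine enzyme Hars had a difference of 0.077, and the 2 subunits of the phenylalanine enzyme, Farsa and Farsb, had nearly equal differences of 0.045 and 0.050. The valine enzyme Vars was at 0.045, and the aspartate enzyme Dars, at -0.035, was the only cytosolic member below 0. Over the 20 cytosolic members the SE ran from 0.13 to 0.32 with a median of 0.17, so differences of the size seen in these genes were within the error of 3 libraries per genotype.

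**Figure D2:**
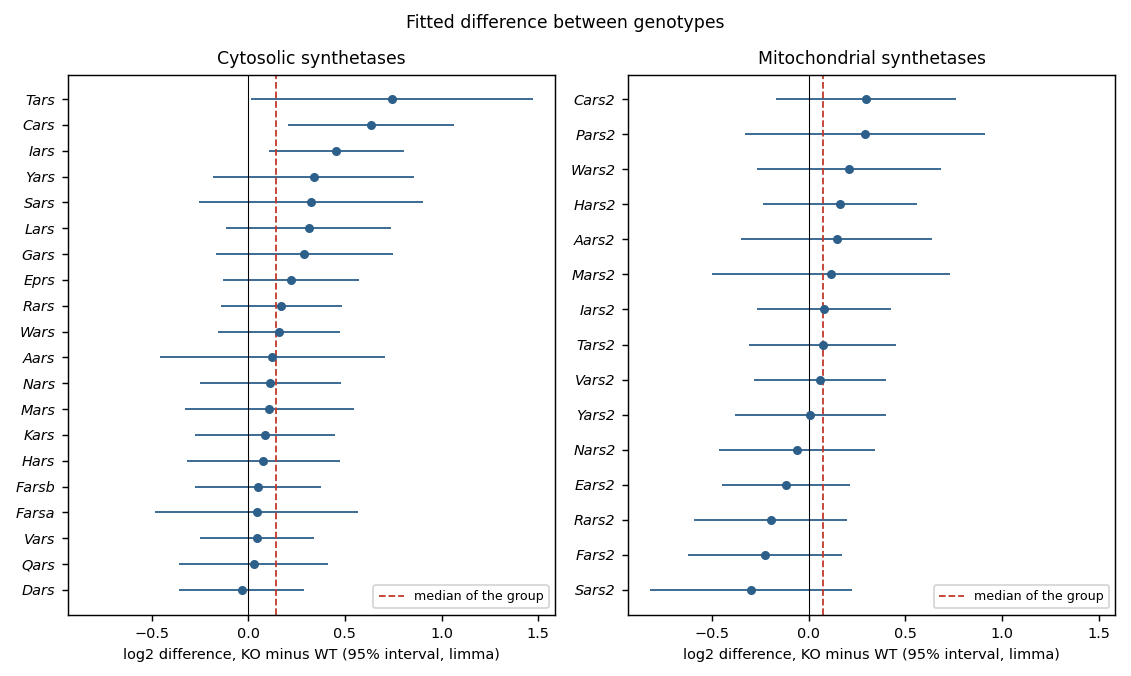
Fitted log2 difference of each member, Top1mt-KO minus WT (x axis), with its 95% interval from limma as a bar and the median of the 20 cytosolic or 15 mitochondrial members as a dashed line. The intervals of Tars, Cars and Iars lie above 0, and those of all the others cross it.

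Of the 20 cytosolic genes, 13 are known from general knowledge as targets of the ATF4 amino acid response (Aars, Cars, Eprs, Gars, Iars, Lars, Mars, Nars, Sars, Tars, Vars, Wars and Yars). All 13 had a difference above 0, with a median of 0.29, which was 0.12 without Top1mt-KO replicate 3 and 0.48 without replicate 1. Aars, Mars and Vars each turned sign when 1 library was left out. The 13 genes held all 3 members under the unadjusted threshold and both members without overlap. Of all genes tested, 1.79% were higher by that threshold in limma and 3.95% higher without overlap. The other 7 (Dars, Farsa, Farsb, Hars, Kars, Qars and Rars) had a median difference of 0.050, with 6 above 0 and 0 past either mark. The lists were chosen with earlier results of these data known, so this split is a description and no independent evidence. As the mean of centred log2 values, the 13 genes stood at -0.15, -0.17 and -0.13 in WT and at -0.20, 0.25 and 0.40 in Top1mt-KO replicates 1 to 3. The WT libraries lay close together (SD 0.024), and the Top1mt-KO libraries were spread on either side of them (SD 0.31), with replicate 1 the lowest of all 6 libraries. The other 7 genes stood at -0.068, 0.017 and -0.039 in WT and at -0.057, 0.097 and 0.050 in Top1mt-KO, a narrower pattern in which the genotypes overlapped. Of the 13 responsive genes, 10 had their highest value in Top1mt-KO replicate 3 and the other 3 in Top1mt-KO replicate 2.

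Genes of the amino acid response that are no synthetases were set beside them. Of 24 such genes, 22 had a difference above 0, with a median of 0.45, 0 passed the adjusted threshold, 5 were higher by unadjusted p under 0.05 in limma and 0 were lower. Over all genes tested, 1.79% were higher and 2.56% lower by the same unadjusted threshold in limma. The genotypes did not overlap for 2 of the 24 genes, both higher in Top1mt-KO, beside 3.95% of all genes tested. These were Asns, which makes asparagine (8.96, 8.01 and 8.72 in WT, 9.57, 9.35 and 10.25 in Top1mt-KO, difference 1.16, SE 0.30), and Ppp1r15a, a phosphatase subunit that restores translation (7.47, 7.26 and 7.26 in WT, 7.58, 7.87 and 8.23 in Top1mt-KO, difference 0.56, SE 0.21). Their mean centred log2 value was -0.13, -0.34 and -0.36 in WT and -0.0072, 0.090 and 0.75 in Top1mt-KO. Here Top1mt-KO replicate 1 lay above all 3 WT libraries, whereas on the responsive synthetases it lay below them. Transcripts of Atf4 itself had a difference of 0.29 (SE 0.20), with overlapping genotypes.

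**Figure D3:**
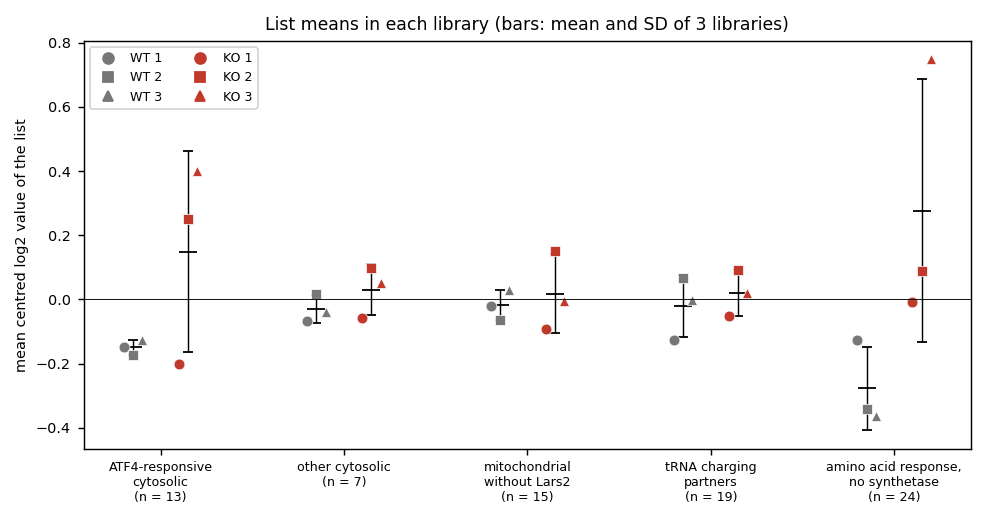
Mean centred log2 value of 5 gene lists in each library (y axis, with each gene centred on its mean over the 6 libraries), WT in grey and Top1mt-KO in red, with a horizontal mark at the mean and bars of 1 SD over 3 libraries. Top1mt-KO replicates 2 and 3, at 0.25 and 0.40, lie above the WT libraries on the ATF4-responsive synthetases, and replicate 1, at -0.20, lies below them.

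The promoters of the members were searched for the composite element to which C/EBP and ATF factors bind, whose letters are TGATGNAA, on both strands. RefSeq windows from 250 bases before to 50 bases after the start of transcription, on GRCm38.p6, were at hand for 27 members, 13 cytosolic and 14 mitochondrial. The element was found in 5 of these 27 windows (18.5%), beside 3.97% of 32851 windows of all genes. All 5 belonged to ATF4-responsive cytosolic members, of which 8 had a window (62.5%), and 0 of the 5 other cytosolic and 0 of the 14 mitochondrial windows held it. Of the response genes that are no synthetases, 8 of 23 windows (34.8%) held it. The 13 genes were listed as targets of ATF4, so the element in their promoters is not independent of the choice of the list. The windows of Tars, Iars, Gars, Yars and Aars carry the element, and 1 site of each is shown. The differences of these 5 genes ran from 0.13 for Aars, whose sign turned without Top1mt-KO replicate 3 (-0.11), to 0.74 for Tars. The windows of Sars, Eprs and Mars, with differences of 0.32, 0.22 and 0.11, did not hold these letters, and no window was at hand for Cars and the other 4 responsive genes. The sites lie at chr15:11399655-11399684 on the minus strand for Tars, chr13:49682126-49682155 for Iars, chr6:55037960-55037989 for Gars, chr4:129189895-129189924 for Yars and chr8:111033840-111033869 for Aars, the last 4 on the plus strand. Each line gives 30 bases, 5′ to 3′ on the strand of the gene, with the element in capitals.
Tars: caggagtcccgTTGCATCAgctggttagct
Iars: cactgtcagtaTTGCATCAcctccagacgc
Gars: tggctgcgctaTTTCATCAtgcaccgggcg
Yars: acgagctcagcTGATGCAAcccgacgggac
Aars: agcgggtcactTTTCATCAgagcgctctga
In Yars the element reads TGATGCAA along the gene, and in the other sites shown it lies on the opposite strand and so appears reversed. The first base of the site shown, along the gene, was 15 bases before the start in Tars, 30 before in Gars, 7 after in Iars, 3 after in Yars and 9 after in Aars. Tars and Iars also hold the E-box CACGTG, as do Aars, Farsb and Ears2, which makes 5 of 27 members (18.5%) beside 7.15% of all windows. A match of letters is a description of the sequence, and the binding of any factor was not measured.

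In the mitochondrial set the 3 members with the largest differences, leaving Lars2 aside, went in both directions. Sars2, which charges mitochondrial serine tRNA, read 6.95, 6.78 and 7.23 in WT and 6.59, 6.96 and 6.52 in Top1mt-KO (difference -0.30, SE 0.23, 95% interval -0.82 to 0.22). Cars2, the mitochondrial cysteine enzyme, read 7.11, 6.90 and 6.90 in WT and 6.99, 7.46 and 7.34 in Top1mt-KO (difference 0.30, SE 0.20, 95% interval -0.17 to 0.76). Pars2, for mitochondrial proline tRNA, read 5.56, 5.45 and 5.97 in WT and 5.89, 5.92 and 6.04 in Top1mt-KO (difference 0.29, SE 0.27, 95% interval -0.33 to 0.91). In all 3 genes the genotypes overlapped. Below 0 lay also Fars2 (phenylalanine) at -0.23, Rars2 (arginine) at -0.20, Ears2 (glutamate) at -0.11 and Nars2 (asparagine) at -0.061. Above 0 lay Wars2 (tryptophan) at 0.21, Hars2 (histidine) at 0.16, Aars2 (alanine) at 0.14, Mars2 (methionine) at 0.12, Iars2 (isoleucine) at 0.081, Tars2 (threonine) at 0.072, Vars2 (valine) at 0.059 and Yars2 (tyrosine) at 0.0092. Hars2 shares exon sequence with Hars on the opposite strand, so the values of these 2 members may not be separate. The same limit holds for Cars2, which overlaps Naxd, and for Ears2, Fars2, Iars2, Nars2 and Vars2. In all, 13 of the 36 members overlap exons of another gene, among them Aars, which overlaps Exosc6 on its own strand. The mean centred log2 value of the 15 genes was -0.020, -0.064 and 0.029 in WT and -0.091, 0.15 and -0.0065 in Top1mt-KO. Top1mt-KO replicate 2 was the highest library for 7 of the 15 genes, and replicates 1 and 3 lay within or below the range of WT.

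The same promoter windows were searched for the core of the NRF1 element, GCATGCGC, since NRF1 is a factor of many nuclear genes for mitochondrial proteins. It was found in 3 of 27 members (11.1%), beside 2.71% of all windows, and all 3 were mitochondrial, which is 21.4% of the 14 mitochondrial windows. The sites, shown for these 3 genes as the counterpart to the cytosolic element, lie at chr4:34614895-34614924 (Rars2, plus strand), chr17:35667620-35667649 and chr17:35667594-35667623 (Vars2, minus strand) and chr3:99141015-99141044 (Wars2, plus strand), with the core in capitals.
Rars2: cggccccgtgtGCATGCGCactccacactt
Vars2, upstream: gagtcttttacGCATGCGCctgcgtgtccc
Vars2, downstream: tccccgcccacGCATGCGCgcgcacctcgc
Wars2: ccagaggacagGCGCATGCgtagtaagcac
The differences of the 3 genes, -0.20, 0.059 and 0.21, spanned both sides of 0, and no shared direction went with the element.

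Pairs that charge the same amino acid compare the compartments with the amino acid held equal. Leaving out leucine, 16 pairs over 15 amino acids could be formed, in which Eprs is paired with both Ears2 and Pars2, and Farsa and Farsb both with Fars2. In 10 of 16 pairs the cytosolic difference was the larger, by a median of 0.27 over all pairs and with a range from -0.085 for histidine to 0.67 for threonine. This median was 0.14 without Top1mt-KO replicate 3, 0.16 without replicate 2 and 0.37 without replicate 1. In 6 pairs the cytosolic member was above 0 and the mitochondrial one below, and the reverse occurred in 0 pairs. The value of Tars minus that of Tars2 within a library was 1.41, 1.29 and 1.28 in WT and 1.39, 2.11 and 2.50 in Top1mt-KO. Top1mt-KO replicate 1 lay inside the WT range for threonine, and the other 2 lay above it. For isoleucine, Iars minus Iars2 was -0.66, -0.83 and -0.71 in WT and -0.44, -0.40 and -0.23 in Top1mt-KO. For cysteine, Cars minus Cars2 was 2.12, 2.50 and 2.40 in WT and 2.58, 2.56 and 2.90 in Top1mt-KO. In both of these pairs every Top1mt-KO library lay above every WT library. The same held for arginine, where Rars minus Rars2 was 1.35, 1.37 and 1.46 in WT and 1.795, 1.95 and 1.54 in Top1mt-KO. In all the other pairs without leucine the genotypes overlapped. No background share was computed for pair values. With 3 against 3 libraries, full separation of a single pair gives an exact two-sided permutation p of 0.1. The cytosolic minus mitochondrial difference was 0.62 for serine, 0.37 for arginine, 0.34 for glutamate, 0.33 for tyrosine, 0.27 for either phenylalanine subunit and 0.18 for asparagine. It was near 0 for alanine (-0.019), methionine (-0.0089), valine (-0.015), tryptophan (-0.049) and proline (-0.068). These are descriptions of fitted values, and no test was made over the pairs.

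**Figure D4:**
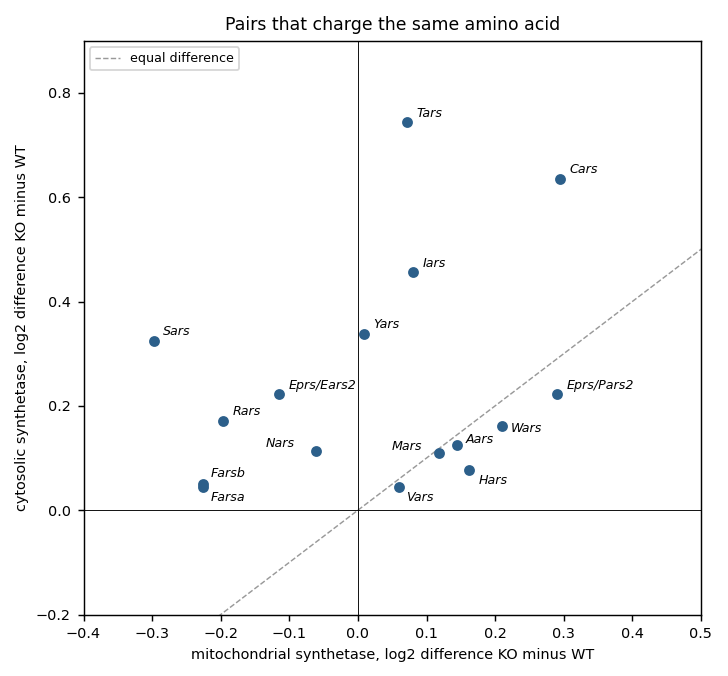
Fitted log2 difference, Top1mt-KO minus WT, of the cytosolic member (y axis) against that of the mitochondrial member for the same amino acid (x axis), 1 point for each of 16 pairs without leucine, with a dashed line where both are equal. In 10 pairs the point lies above the line, with threonine at 0.74 against 0.072 and serine at 0.32 against -0.30.

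Members were also grouped by structure and assembly, with no test over the groups. The 8 members of the multi-synthetase complex, which holds several cytosolic synthetases on shared scaffold proteins, had a median difference of 0.14, as did the 12 cytosolic members outside it. Within the cytosolic set, the median was 0.17 for the 9 enzymes of class I and 0.10 for the 10 of class II, the 2 unrelated folds of synthetase catalytic domains. Eprs, which joins a class I to a class II enzyme, was counted in neither. With the mitochondrial members added and Lars2 left out, the medians were 0.12 for 17 enzymes of class I and 0.086 for 17 of class II.

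Other genes of tRNA charging showed no common direction. Of 19 such genes (scaffold proteins of the complex, the amidotransferase that makes mitochondrial glutamine-charged tRNA, tRNA end repair, proofreading and tRNA export), 0 passed the adjusted threshold in either direction in limma and 0 had an unadjusted p under 0.05. There were 11 above 0 and 8 below, with a median difference of 0.0058. The scaffold proteins Aimp1, Aimp2 and Eef1e1 had differences of -0.055, -0.15 and 0.0058, and the amidotransferase subunits Qrsl1, Gatb and Gatc 0.30, 0.11 and -0.094. Of the 19 genes, 1 had genotypes that did not overlap, beside 4.33% of all genes tested that were lower without overlap. This gene was Trnt1, which adds the CCA end to tRNA. It read 8.10, 8.12 and 8.19 in WT and 7.88, 7.98 and 8.01 in Top1mt-KO (difference -0.18, SE 0.14), lower in all 3 Top1mt-KO libraries.

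The 3 Top1mt-KO libraries were not alike on the cytosolic members. Their mean centred log2 value was -0.12, -0.11 and -0.096 in WT and -0.15, 0.20 and 0.28 in Top1mt-KO replicates 1 to 3, so replicate 1 lay near the WT libraries and replicates 2 and 3 above them. Top1mt-KO replicate 3 was the highest of the 6 libraries for 12 of the 20 cytosolic members and replicate 2 for 5. The lowest library was Top1mt-KO replicate 1 for 7 members, WT replicate 1 for 6, WT replicate 3 for 4 and WT replicate 2 for 3. Top1mt-KO replicate 1 lay below all 3 WT libraries for 7 cytosolic and 3 mitochondrial members, beside 24.5% of all genes tested, and above all 3 for 3 cytosolic and 0 mitochondrial members, beside 24.8%. The medians depended on which Top1mt-KO library was left out. Without replicate 3, the median difference was 0.12 for the cytosolic members and 0.10 for the mitochondrial ones, so the medians of the compartments were nearly equal. Without replicate 2, they were 0.10 and -0.047. Without replicate 1, the median difference of the cytosolic members was 0.28 and that of the 13 ATF4-responsive ones 0.48, and the median of the other 7 was 0.091. The genotypes then did not overlap for 11 cytosolic members, all higher in Top1mt-KO (Cars, Eprs, Gars, Iars, Lars, Mars, Nars, Rars, Tars, Wars and Yars), 10 of them responsive. With 3 against 2 libraries, 9.77% of all genes were higher without overlap and 11.7% lower. Of the 15 mitochondrial members, 2 were then higher without overlap (Aars2 and Cars2) and 1 was lower (Fars2), and their median was 0.15. By unadjusted p under 0.05 in limma, 6 cytosolic members were higher without replicate 1 (Cars, Gars, Iars, Lars, Tars and Yars), beside 2.82% of all genes, and 0 mitochondrial members differed. The smallest adjusted p of any member was then 0.332 by limma, for Tars. Without Top1mt-KO replicate 2 or WT replicate 3, 1 member had an unadjusted p under 0.05.

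Cell type markers were set beside these values. The 5 endothelial markers were all higher in Top1mt-KO, 2 of them without overlap, with summed levels of 12.6 to 12.9 in WT and 12.8 to 13.0 in Top1mt-KO. Of 5 bile duct markers, 2 were higher and 3 lower, 2 of these lower without overlap, and the summed levels were 11.6 to 12.6 in WT and 11.7 to 12.6 in Top1mt-KO. Of 6 hepatocyte markers, 1 was higher without overlap. Of 5 T and NK cell markers, 1 was higher and 1 lower without overlap. Over all genes tested, 3.95% were higher and 4.33% lower without overlap. The summed levels of the stellate cell (12.4 to 14.0 in WT, 11.6 to 13.7 in Top1mt-KO), macrophage (11.5 to 12.6 and 11.4 to 12.3), T and NK cell (5.49 to 6.08 and 5.71 to 6.03), B and plasma cell (8.15 to 9.02 and 6.76 to 8.61) and proliferation lists (10.5 to 11.6 and 11.2 to 11.5) overlapped between genotypes. The part of cell makeup in the synthetase values was not tested.

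Lars2 had the largest standard error of the 36 members, and its values are given apart. It read 9.05, 8.55 and 12.7 in WT replicates 1 to 3 and 20.1, 8.44 and 8.52 in Top1mt-KO replicates 1 to 3. The fitted difference was 2.25 (SE 2.90) with all libraries and -1.61 without Top1mt-KO replicate 1, so its direction rested on 1 library. In Top1mt-KO replicate 1 Lars2 made up 4.62% of the sum of all values on the linear scale, beside 0.0440% in WT replicate 3 and 0.0022% to 0.0033% in the other 4 libraries. In the same 2 libraries, a pair of genes with model symbols was high as well. The source of the reads counted for this pair and for Lars2 was not tested. Gm42418 read 12.4, 12.7 and 15.8 in WT and 22.0, 11.7 and 11.7 in Top1mt-KO, and took 17.7% of the linear sum in Top1mt-KO replicate 1. Gm15564 read 4.83, 4.75 and 8.86 in WT and 16.8, 3.93 and 4.43 in Top1mt-KO. Lars, the cytosolic leucine enzyme, did not follow them, at 9.53, 9.56 and 9.83 in WT and 9.59, 10.16 and 10.10 in Top1mt-KO. The part of this signal in the other synthetase values of Top1mt-KO replicate 1 was not tested. With Lars2 kept among them, the median of the 16 mitochondrial members was 0.076, close to the value without it.

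**Figure D5:**
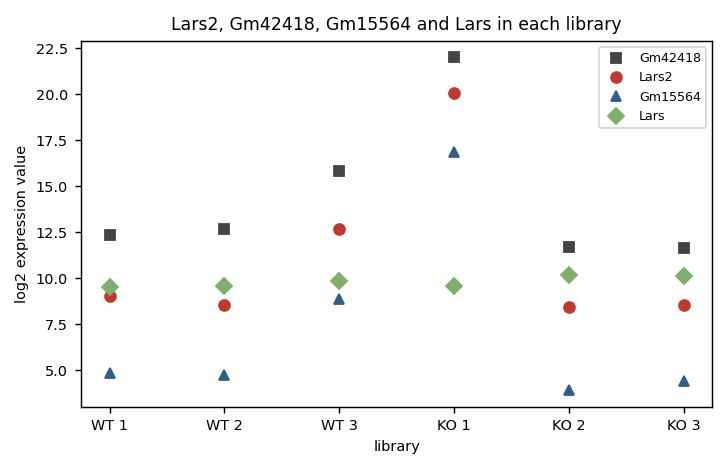
Log2 expression value (y axis) of Lars2, Gm42418, Gm15564 and Lars in each of the 6 libraries (x axis), 1 point per gene and library. Lars2, Gm42418 and Gm15564 are highest in Top1mt-KO replicate 1, at 20.1, 22.0 and 16.8, and next highest in WT replicate 3, while Lars stays between 9.53 and 10.16.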

How the data were processed

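Libraries had been made from tumor RNA with a stranded TruSeq kit. Per the study's methods, reads were trimmed with Trimmomatic, aligned to a mouse genome named there as Mm 8 with BWA, kept if uniquely mapped and counted with featureCounts, and the authors compared genotypes with DESeq2. From these tumors the study reported differentially expressed genes and named ATF4 among their upstream regulators. Its test took counts and the limma fit took transformed values, so the calls of the tests are not directly comparable. The submitters' processing notes name bcl2fastq 2.17, Trimmomatic 0.36, STAR 2.5.1, Subread and GRCm38, and which aligner and build made the file could not be settled. The authors deposited log2 values per gene symbol, from -2.24 to 22.0, with an unnamed transform. A transform that draws low values together would understate differences of weakly expressed genes. Counts and depth are unknown, so no interval from counts is given. A few leftover cells in 3 unnamed columns were not used, and 0 further columns hold values of a sample.

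Genes with a mean in the lowest 25% were left out. Genotypes were compared over 6 libraries with limma 3.58.1 in R 4.3.3 (lmFit, eBayes with trend), with Benjamini-Hochberg adjustment over 22677 genes and a threshold of 0.05, after the code had been tested on simulated data. In these simulated data, 0 of 200 genes given a log2 shift of 1 passed the threshold, and 91 of 200 given a shift of 2. The shifted genes were drawn from all genes tested, which had a median SE of 0.32. The median SE was 0.17 for the cytosolic members and for the mitochondrial ones without Lars2. How large a difference a member needed to pass was therefore not measured. Lists are described by medians and counts, with no test. A library mean of a list is the mean of its values after centring each gene on its mean over 6 libraries. Summed marker levels are log2 of summed linear values. The members and lists were chosen with earlier results of these data known. Values per library are given for Top1mt, Lars2 with Gm42418 and Gm15564, members and tRNA charging genes without overlap, the 3 members with the largest absolute differences in each compartment, and Eprs, Gars, Kars and Qars. Yars, Lars, Asns and Ppp1r15a were given in addition after their values had been seen. Exon overlaps are from GENCODE M21 and promoter windows from RefSeq, both on GRCm38, the build of the processing notes. No promoter window was used for 9 members (Cars, Hars, Lars, Nars, Rars, Vars, Wars, Hars2 and Pars2). A withheld gene and a withheld sequence are not reported here.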

Additional observations from a re-analysis of the deposited data

How the results depend on the processing

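Read depth is unknown, and with 3 libraries a genotype the values of 1 tumor weigh heavily. Of 11 alternatives to the limma fit, none took a member past the adjusted threshold, which with so few libraries says nothing about stability. With no filter on low values 4 genes of the whole table were called (adjusted p under 0.05, limma), none of them a member, and leaving out each library gave 0 to 1. A filter at the median left 590 genes with an unadjusted p under 0.05, beside 985. Members with an unadjusted p under 0.05 numbered 1 to 6 when each library was left out. Members without overlap numbered 3 to 15 in the same way, where fewer libraries have to be separated (15 without Top1mt-KO replicate 1, 8 without WT replicate 3, 5 without WT replicate 1 and 4 without WT replicate 2), and 3 after quantile normalization, an alternative chosen after seeing the data. The median of the mitochondrial members ran from -0.047 to 0.15, that of the cytosolic members from 0.10 to 0.28, that of the ATF4-responsive ones from 0.12 (without Top1mt-KO replicate 3) to 0.48 (without replicate 1), and that of the pair contrast from 0.14 to 0.37. Of the alternatives that keep all libraries, only quantile normalization can change a fitted difference, and it turned no sign. The filters, the fit without the trend and the replicate block leave each fitted difference as it is by construction. Leaving out 1 library turned the sign of 16 of the 36 members, 9 cytosolic and 7 mitochondrial, and the cause was not tested. Their differences ran from -0.11 to 0.39 for Aars, -0.098 to 0.054 for Dars, -0.12 to 0.24 for Farsa, -0.023 to 0.11 for Farsb, -0.068 to 0.17 for Hars, -0.036 to 0.20 for Kars, -0.015 to 0.31 for Mars, -0.098 to 0.13 for Qars and -0.020 to 0.089 for Vars. For the mitochondrial members they ran from -0.051 to 0.33 for Aars2, -0.038 to 0.15 for Iars2, -1.61 to 4.20 for Lars2, -0.16 to 0.028 for Nars2, -0.051 to 0.17 for Tars2, -0.047 to 0.12 for Vars2 and -0.099 to 0.098 for Yars2. The other 20 members kept their sign throughout.

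WT and Top1mt-KO libraries share the replicate numbers 1 to 3. Deviations from the group means correlated at -0.123, -0.0759 and 0.0520 over genes, so libraries of the same number did not deviate together. Whether the numbers pair tumors, for example by litter, is not stated, and these correlations cannot settle it. With the replicate number as a block, limma called 0 genes, 912 had an unadjusted p under 0.05, and 3 members did. Each number holds 1 library of each genotype, so the block cannot change a fitted difference. The medians of 0.143 for the cytosolic and 0.0717 for the mitochondrial members were thus the same by construction.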
